A study of Mus musculus with 17 samples.

Results

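The collagen genes were followed in cultured erythroid blasts of SPI1 transgenic mice. They were taken as the genes whose name is Col, a number, the letter a and a number, as in Col1a2. This gave 31 of the 26029 genes in the count table of model 1 and 26 of the 24659 genes in that of model 2. Of the 28600 genes in either table, 33 were collagen genes, and 24 of these were in both. GENCODE M21 annotates 44 mouse genes with such a name, and those in neither of these tables enter no comparison here.

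The blasts were isolated from spleens of sick mice that carried the Spi1 transgene, and were grown with erythropoietin (EPO), with 1 polyA RNA library from each of 17 mice. Libraries are named here as in their labels, by stage and mouse number. Model 1 (strain DBA2JxFVB/N) held 4 preleukaemic mice with an intact Fanca gene (TgSpi1FA+/+; preleukemic_138, preleukemic_445, preleukemic_451 and preleukemic_479), and 6 mice without Fanca (TgSpi1FA-/-), of which 3 were preleukaemic (preleukemic_40, preleukemic_77 and preleukemic_224) and 3 leukaemic (leukemic_26, leukemic_28 and leukemic_39). Model 2 (strain DBA2J) held 4 TgSpi1FA+/+ preleukaemic mice (preleukemic_633, preleukemic_663, preleukemic_812 and preleukemic_837) and 3 TgSpi1FA+/+ leukaemic mice (leukemic_601, leukemic_606 and leukemic_921), whose leukaemic cells had emerged after serial blood transfusion. Strain and library protocol differed between the models and cannot be told apart from them.

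Collagens are proteins of the extracellular matrix in which 3 chains wind into a triple helix. Fibrillar collagens form the fibres of connective tissue, type IV collagen forms the sheet of basement membranes, multiplexins sit beside basement membranes, and transmembrane collagens are held in the cell surface. Chains are hydroxylated and folded in the endoplasmic reticulum before secretion. In haematopoietic tissue, stromal cells and vessel walls are the known collagen producers, and megakaryocytes make basement membrane components.

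Libraries of model 1 summed to 29964576 to 38217654 counts, and those of model 2 to 37726753 to 40514205. Levels are given as CPM, the count scaled to a fixed library size with TMM correction for composition. Fanca stood at 28.2 to 83.5 CPM in the TgSpi1FA+/+ libraries of model 1 and at 0.614 to 2.30 CPM in the TgSpi1FA-/- libraries. Spi1 stood at 219 to 1060 CPM in model 1, except in the library labelled leukemic_39, where it was 3.87 CPM. All 11 erythroid markers, Gata1, Klf1 and Epor among them, reached 1 CPM in each library, except Hbb-bt in leukemic_39 (0.101 CPM). The libraries labelled preleukemic_445 and preleukemic_479 were far closer to each other (chi-square per degree of freedom 8.53 over all genes) than any other pair of 1 group in model 1 (114 to 372). They are kept as separate mice, and the counts of collagens called, Col15a1, Col1a2 and Col6a3 are also given without them. In a second count table of the same mice, described at the end, the library labelled preleukemic_445 did not match this pair.

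Of the 31 collagen genes of model 1, 15 reached 1 CPM in at least 1 library (48.4%, against 49.3% of all genes in the table). In model 2, 8 of 26 did so (30.8%, against 49.9%). Only Col5a1, Col18a1 and Col11a2 reached 1 CPM in all 10 libraries of model 1, and Col5a1 and Col11a2 in all 7 libraries of model 2. A library held between 4 and 9 such collagens in model 1 and between 3 and 5 in model 2. The highest number, 9, was that of the leukaemic mouse leukemic_28, and the leukaemic mouse leukemic_26 held 4.

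**Figure D1:**
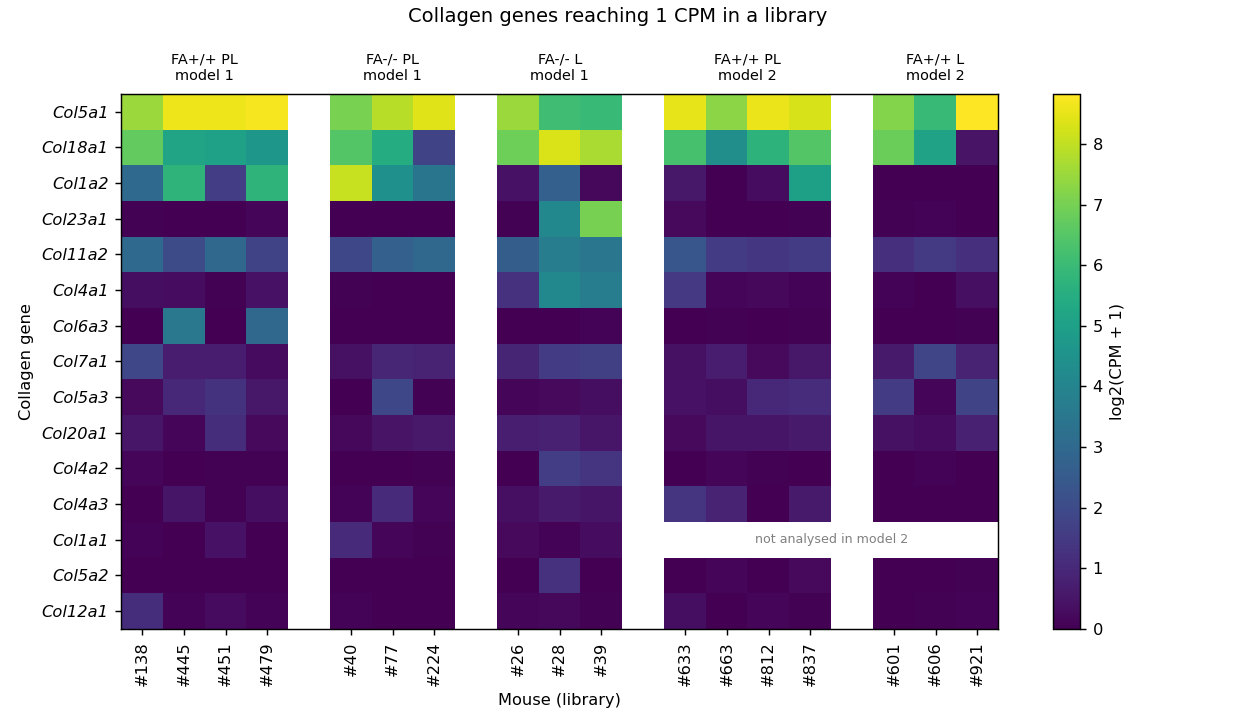
Level of the 15 collagen genes that reached 1 CPM in at least 1 library, as log2(CPM + 1) in colour, with 1 column per mouse, given by its number, and groups side by side (PL, preleukaemic; L, leukaemic). Col5a1 is bright in all 17 libraries, whereas Col23a1 and Col4a1 are bright only in leukemic_28 and leukemic_39.

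Levels were divided by the exon length of each gene to compare genes, and the sum over the collagens was 37.0 to 63.9 CPM per kb in model 1 and 12.8 to 54.7 CPM per kb in model 2. The fibrillar chain Col5a1 was the most abundant in 14 of the 17 libraries and held 11.4% to 98.2% of the sum. The multiplexin Col18a1 was the most abundant in the leukaemic mice leukemic_28 (73.4%) and leukemic_39 (46.9%), and the type I chain Col1a2 in the TgSpi1FA-/- preleukaemic mouse preleukemic_40 (43.4%). Together these 3 chains held 87.3% or more of the sum in each library except leukemic_39, where they held 58.3% and the transmembrane collagen Col23a1 held 35.4%.

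**Figure D2:**
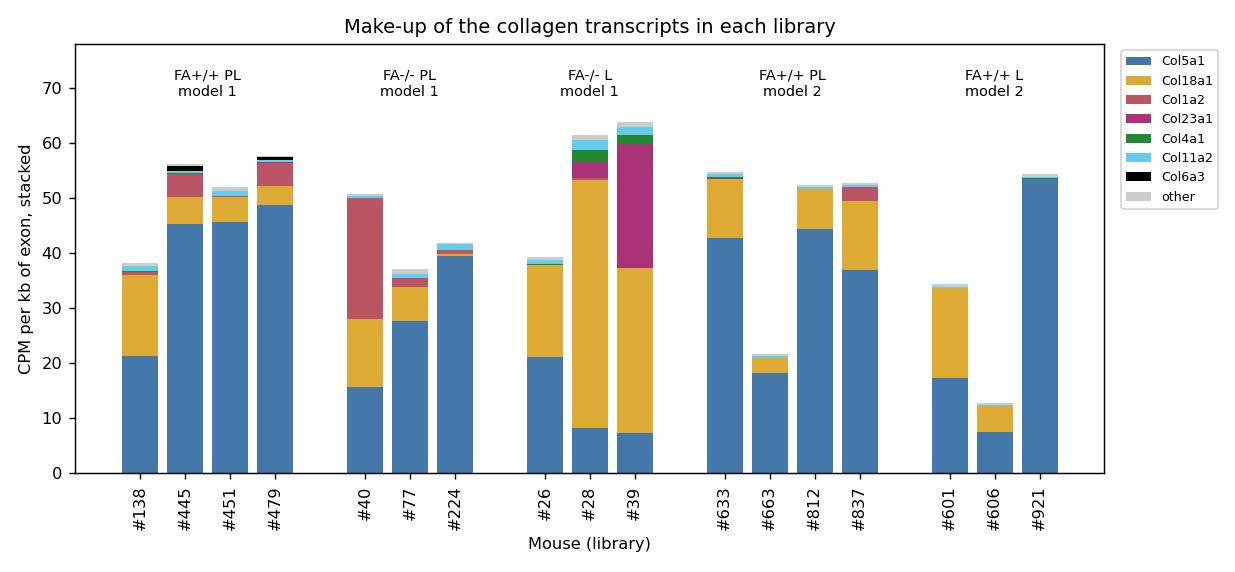
Collagen transcripts of each library as CPM per kb of exon, stacked by gene, with 1 bar per mouse (PL, preleukaemic; L, leukaemic). Col5a1 fills most of the bar in 14 libraries, Col18a1 leads in leukemic_28 and leukemic_39, and Col23a1 is seen in leukemic_28 and leukemic_39.

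Within model 1, the TgSpi1FA-/- leukaemic cells were compared with the TgSpi1FA-/- preleukaemic cells to see which genes go with the leukaemic stage in the absence of FANCA. Of 11 collagens with enough counts for the test (Col1a2, Col4a1, Col4a3, Col5a1, Col5a3, Col7a1, Col9a3, Col11a2, Col15a1, Col18a1 and Col20a1), 2 rose, Col4a1 and Col15a1, and 0 fell (edgeR quasi-likelihood test, with thresholds of 0.05 for the adjusted p and 1.5 for the fold change). Over all 13393 genes tested, 13.3% passed these thresholds, 6.82% upwards and 6.49% downwards, so that 2 of 11 collagens is near the share of all genes. Col4a1 and Col15a1 would not have passed the filter on low counts without the leukaemic mice, so that a fall could hardly be called for them. The median log2 fold change was 0.85 over the 11 collagens and 0.00 over all genes tested. The groups did not overlap for 4 of the 11 (Col4a1, Col15a1 and Col18a1 higher and Col1a2 lower in the leukaemic cells), where 38.7% of all genes did not overlap, 19.3% higher and 19.5% lower. DESeq2's Wald test was run without the filter of edgeR, but by default it gives no adjusted p to genes of low mean count. Such genes could not be called and stay in its shares. Of 30 collagens with a p value it called 5 (Col4a1, Col4a2, Col15a1 and Col23a1 upwards and Col1a2 downwards). Of all genes with a p value it called 12%, 7.35% upwards and 4.69% downwards.

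The TgSpi1FA-/- preleukaemic cells were compared with the TgSpi1FA+/+ preleukaemic cells to see the part of the genotype alone. Of the same 11 collagens, 0 passed the edgeR test, against 0.00747% of all genes (1 of 13393). At an unadjusted p under 0.05 there were 2, Col4a1 and Col15a1, against 8.65% of all genes. DESeq2 also called 0 of 30 collagens, against 0.994% of all genes, with 4 at an unadjusted p under 0.05, against 6.04%. The 2 comparisons of model 1 share the TgSpi1FA-/- preleukaemic mice. In model 2, TgSpi1FA+/+ leukaemic cells were compared with TgSpi1FA+/+ preleukaemic cells. Here 0 of 7 collagens and 0 of 12970 genes (0%) passed the edgeR test. At an unadjusted p under 0.05 there were 2 collagens, Col4a3 and Col7a1, against 19.9% of all genes, and DESeq2 called 1 of 23, Col4a3, against 2.02% of all genes.

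Col5a1 encodes the chain of type V collagen that starts the assembly of fibrils. It lies on chromosome 2 at 27886425 to 28039514 of GRCm38 on the plus strand, and 99 and 113 bp of its exons overlap a gene of the opposite strand each. The stretch before its RefSeq start (GRCm38.p6, plus strand, chr2:27886175-27886424) is shown because this collagen led in nearly all libraries, with the GC box GGGCGG and the PU-box GAGGAA, a motif of the SPI1 family, in capitals on either strand.
Col5a1: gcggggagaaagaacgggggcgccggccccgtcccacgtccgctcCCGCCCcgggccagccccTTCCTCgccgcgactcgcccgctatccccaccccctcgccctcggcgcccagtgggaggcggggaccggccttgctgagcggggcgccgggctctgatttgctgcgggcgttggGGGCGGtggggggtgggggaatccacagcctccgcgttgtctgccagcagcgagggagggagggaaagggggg
The window holds 2 GC boxes, 1 PU-box and 28 CG dinucleotides. Over the 32851 RefSeq windows of the same length, 32.7% hold a GC box and 23.3% a PU-box, and the median number of CG dinucleotides is 6. A match of letters is a description and does not show that a factor binds there.

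Col5a1 was high in every library. In the TgSpi1FA+/+ preleukaemic mice of model 1 it stood at 385 CPM in preleukemic_445, 414 in preleukemic_479, 387 in preleukemic_451 and 180 in preleukemic_138. It stood at 234 CPM in preleukemic_77, 334 in preleukemic_224 and 133 in preleukemic_40 of the TgSpi1FA-/- preleukaemic mice and at 179 in leukemic_26, 68.5 in leukemic_28 and 61.8 in leukemic_39 of the leukaemic mice. The lowest levels were those of leukemic_28 and leukemic_39, whereas leukemic_26 lay within the range of the preleukaemic mice. The mean was 103 ± 65.95 CPM (SD, n = 3) in the leukaemic and 234 ± 101 CPM (n = 3) in the preleukaemic TgSpi1FA-/- cells. The log2 difference was -1.18 (SE 0.50) and did not pass the edgeR test over all genes (adjusted p = 0.135). Without leukemic_26 it was -1.83 and passed it (adjusted p = 0.0308).

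In model 2, Col5a1 stood at 363 CPM in preleukemic_633, 154 in preleukemic_663, 376 in preleukemic_812 and 314 in preleukemic_837 of the preleukaemic mice. In the leukaemic mice it stood at 146 CPM in leukemic_601, 62.8 in leukemic_606 and 454 in leukemic_921. The lowest and the highest level of this model were thus both in leukaemic mice, and the groups overlapped. The log2 difference was -0.45 (SE 0.63, adjusted p = 0.724 by edgeR). Between TgSpi1FA-/- and TgSpi1FA+/+ preleukaemic cells of model 1 it was -0.54 (SE 0.46, adjusted p = 0.789 by edgeR).

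Partners of Col5a1 in type V and type XI fibrils were low. Col5a2, its usual partner chain, reached 1 CPM only in leukemic_28 (1.38 CPM) and had 0 counts in the other 9 libraries of model 1. Col5a3 ranged from 0 CPM in preleukemic_40 to 2.79 CPM in preleukemic_77 in model 1 and from 0.0761 CPM in leukemic_606 to 2.496 CPM in leukemic_921 in model 2. The remaining values of Col5a3 were 1.03 CPM in preleukemic_445, 0.476 in preleukemic_479, 1.47 in preleukemic_451, 0.170 in preleukemic_138 and 0.0292 in preleukemic_224, and 0.110, 0.178 and 0.253 CPM in the leukaemic mice leukemic_26, leukemic_28 and leukemic_39. In model 2 they were 0.352 CPM in preleukemic_633, 0.250 in preleukemic_663, 1.012 in preleukemic_812, 1.19 in preleukemic_837 and 1.95 in leukemic_601. Neither model thus had a group set apart by Col5a3.

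Col11a2, a chain of type XI collagen, was found in every library. In model 1 it stood at 3.18 CPM in preleukemic_445, 2.47 in preleukemic_479, 6.79 in preleukemic_451 and 7.07 in preleukemic_138, and at 5.51 in preleukemic_77, 6.90 in preleukemic_224 and 2.78 in preleukemic_40. In the leukaemic mice leukemic_26, leukemic_28 and leukemic_39 it stood at 5.15, 11.9 and 10.2 CPM. The 2 highest levels were those of leukemic_28 and leukemic_39, and leukemic_26 lay among the preleukaemic mice. In model 2 it stood at 4.20 CPM in preleukemic_633, 1.97 in preleukemic_663, 1.63 in preleukemic_812 and 1.95 in preleukemic_837, and at 1.36 in leukemic_601, 1.80 in leukemic_606 and 1.30 in leukemic_921, with the groups overlapping. Neither Col5a3 nor Col11a2 passed the edgeR test in any of the 3 comparisons. Per kb of exon, the mean level over model 1 was 27.99 CPM for Col5a1, against 0.901 for Col11a2 and 0.0956 for Col5a3.

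Col18a1 encodes type XVIII collagen, a multiplexin of basement membranes from which endostatin is released. It lies on chromosome 10 at 77052178 to 77166548 on the minus strand. In model 1 it stood at 34.6 CPM in preleukemic_445, 24.3 in preleukemic_479, 31.9 in preleukemic_451 and 104 in preleukemic_138, all TgSpi1FA+/+ preleukaemic. It stood at 43.5 CPM in preleukemic_77, 2.48 in preleukemic_224 and 86.5 in preleukemic_40 of the TgSpi1FA-/- preleukaemic mice. It stood at 117 CPM in leukemic_26, 317 in leukemic_28 and 210 in leukemic_39 of the leukaemic mice, each above all preleukaemic mice of model 1 in this table. In the second table of the same mice, leukemic_26 (36.1 CPM) lay below preleukemic_138 (106 CPM). The mean was 215 ± 99.8 CPM (SD, n = 3) in leukaemic and 44.2 ± 42.0 CPM (n = 3) in preleukaemic TgSpi1FA-/- cells. The log2 difference was 2.29 (SE 1.02) and did not pass the edgeR test (adjusted p = 0.154). An exact permutation test of the mean CPM, two-sided, gave p = 0.1, the smallest that 3 mice against 3 allow.

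In model 2, Col18a1 stood at 75.6 CPM in preleukemic_633, 19.4 in preleukemic_663, 51.5 in preleukemic_812 and 87.9 in preleukemic_837. The leukaemic mice of model 2 held 115 CPM in leukemic_601, 32.8 in leukemic_606 and 0.397 in leukemic_921, so that they spanned the whole range of the model. The log2 difference was -0.24 (SE 1.23, adjusted p = 0.934 by edgeR). In leukemic_921, where Col18a1 was lowest, Col5a1 was highest and held 98.2% of the collagen sum. Between TgSpi1FA-/- and TgSpi1FA+/+ preleukaemic cells the log2 difference of Col18a1 was -0.14 (SE 0.91, adjusted p = 0.981 by edgeR).

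Col1a2 encodes the second chain of type I collagen, the main collagen of bone and skin, which is normally built with the chain of Col1a1. Col1a2 lies on chromosome 6 at 4504814 to 4541544 on the plus strand. It stood at 52.1 CPM in preleukemic_445, 52.7 in preleukemic_479, 2.05 in preleukemic_451 and 7.01 in preleukemic_138, and at 20.3 in preleukemic_77, 9.76 in preleukemic_224 and 273 in preleukemic_40. In the leukaemic mice it was 0.356 CPM in leukemic_26, 5.55 in leukemic_28 and 0.152 in leukemic_39, below each TgSpi1FA-/- preleukaemic mouse, while leukemic_28 lay above preleukemic_451 of the TgSpi1FA+/+ mice. Col1a1 was at most 1.10 CPM (in preleukemic_40) and had 0 counts in preleukemic_445 and preleukemic_479, where Col1a2 had 1670 and 1662 counts. Transcripts of the partner chain were thus nearly lacking where Col1a2 was high.

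The mean of Col1a2 was 2.02 ± 3.06 CPM (SD, n = 3) in leukaemic and 101 ± 149 CPM (n = 3) in preleukaemic TgSpi1FA-/- cells. The log2 difference of -5.64 (SE 1.96) did not pass the edgeR test (adjusted p = 0.0840), whereas DESeq2's Wald test called it (adjusted p = 0.00112). The value of preleukemic_40 alone carried much of the mean, and without preleukemic_40 the log2 difference was -2.90 (without leukemic_28, -8.60). Between the preleukaemic genotypes the log2 difference was 1.83 (SE 1.5012, adjusted p = 0.777 by edgeR), and it was -0.92 without preleukemic_40 and 4.48 without both preleukemic_445 and preleukemic_479 (adjusted p = 1 by edgeR). In model 2, Col1a2 stood at 0.478 CPM in preleukemic_633, 0 in preleukemic_663, 0.213 in preleukemic_812 and 31.6 in preleukemic_837, and had 0 counts in all 3 leukaemic mice. It did not pass the filter on low counts there. Against the level of 3 counts per library, the leukaemic mean was at least 102-fold lower, but at least 2.90-fold lower without preleukemic_837.

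**Figure D3:**
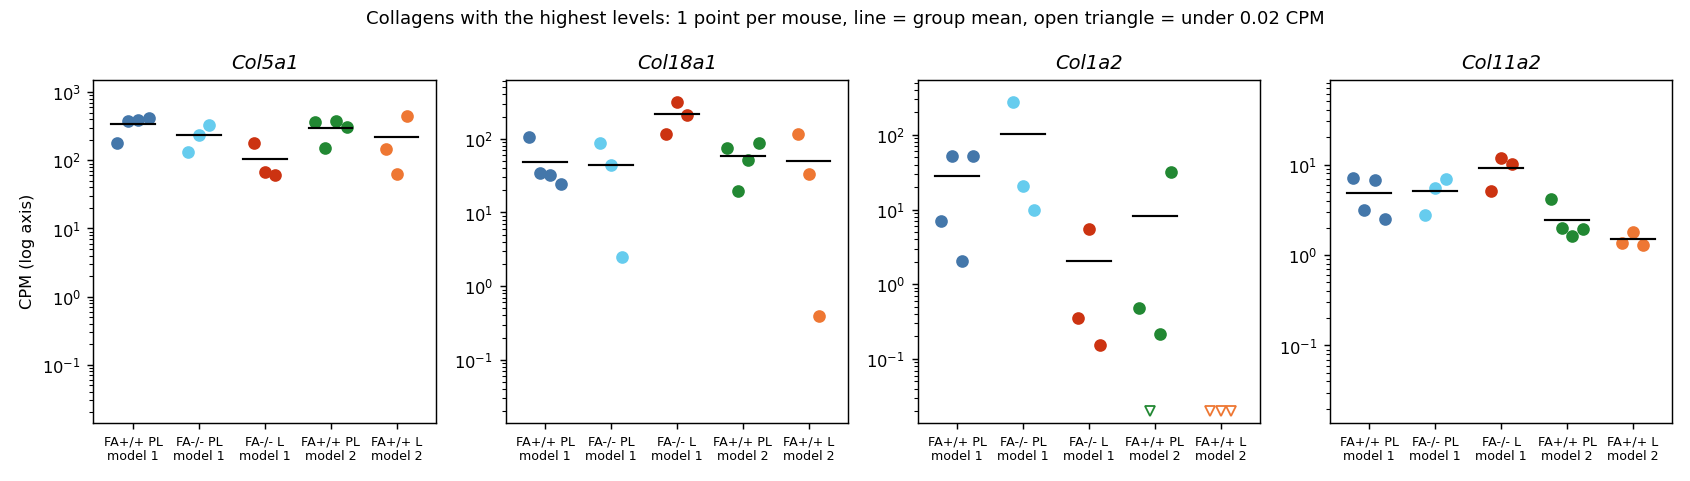
Level of Col5a1, Col18a1, Col1a2 and Col11a2 in CPM on a log axis in the 5 groups, with 1 point per mouse, a line at the group mean and open triangles for values under 0.02 CPM (PL, preleukaemic; L, leukaemic). The 3 TgSpi1FA-/- leukaemic mice lie above all preleukaemic mice of model 1 for Col18a1 in this table, while Col1a2 has 0 counts in the leukaemic mice of model 2.

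Col4a1 and Col4a2 encode the chains of the common type IV collagen of basement membranes. They lie head to head on chromosome 8, Col4a1 at 11198423 to 11312826 on the minus strand and Col4a2 at 11312805 to 11449287 on the plus strand. In RefSeq and in GENCODE alike their first exons overlap by 22 bases of opposite strands (GRCm38.p6, chr8:11312805-11312826), which are shown on the plus strand because both genes start there.
Col4a1 and Col4a2: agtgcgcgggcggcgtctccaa
The 250 bases before the RefSeq starts lie within exons of the other gene, with 31 CG dinucleotides before Col4a1 and 26 before Col4a2.

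Col4a1 rose in the TgSpi1FA-/- leukaemic cells. It had 50 counts in leukemic_26, 651 in leukemic_28 and 474 in leukemic_39, against 0 in preleukemic_77, 0 in preleukemic_224 and 1 in preleukemic_40 of the preleukaemic mice. In CPM this was 1.37, 16.6 and 12.0 in the leukaemic mice and at most 0.0323 in the preleukaemic ones, so that the groups stood far apart, with leukemic_26 the lowest of the leukaemic mice. Against 3 counts per library, the leukaemic mean of 9.98 ± 7.80 CPM (SD, n = 3) was at least 106-fold higher. The edgeR test gave an adjusted p of 0.00896 (log2 fold change 9.46, SE 1.48, a fitted value that depends on the near absence of counts). It was called with each of the 6 mice of this comparison left out in turn, with an adjusted p of at most 0.0429 by edgeR. All these values are those of the first table. In the second table of the same mice, described at the end, leukemic_26 had almost no counts of Col4a1, unlike leukemic_28 and leukemic_39.

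In the TgSpi1FA+/+ preleukaemic mice, Col4a1 had 7 counts in preleukemic_445, 11 in preleukemic_479, 1 in preleukemic_451 and 9 in preleukemic_138, a mean of 0.214 ± 0.133 CPM (SD, n = 4). The TgSpi1FA-/- preleukaemic mice had at most 1 count each. The log2 difference of -3.94 (SE 1.32) had an unadjusted p of 0.0152 and an adjusted p of 0.535 by edgeR. In model 2, Col4a1 reached 1 CPM only in the preleukaemic mouse preleukemic_633 (1.76 CPM) and was 0.0494 to 0.133 CPM in the other preleukaemic mice. It was 0.0513 CPM in leukemic_601, 0 in leukemic_606 and 0.284 in leukemic_921 of the leukaemic mice. It did not pass the filter on low counts in that model alone.

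Col4a2 followed Col4a1 in leukemic_28 and leukemic_39 at lower levels. It had 79 counts in leukemic_28 and 59 in leukemic_39 (2.01 and 1.49 CPM), but 0 in leukemic_26 and at most 4 in the 7 preleukaemic mice of model 1. Too few libraries had counts for the edgeR filter. Against 3 counts per library, the leukaemic mean was at least 12.4-fold higher than the TgSpi1FA-/- preleukaemic mean, at least 18.6-fold without leukemic_26 and at least 7.90-fold without leukemic_28. DESeq2's Wald test called it (adjusted p = 0.00756). Per kb of exon, Col4a1 was 2.22 CPM in leukemic_28 and 1.60 CPM in leukemic_39, and Col4a2 was 0.304 and 0.225 CPM.

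Col15a1, the other multiplexin, rose in the same comparison at far lower levels. It had 25 counts in leukemic_26, 13 in leukemic_28 and 35 in leukemic_39, against 0 in preleukemic_77, 1 in preleukemic_224 and 1 in preleukemic_40. The leukaemic mean of 0.633 ± 0.280 CPM (SD, n = 3) was at least 6.71-fold higher than 3 counts per library allow for the preleukaemic cells (edgeR adjusted p = 0.0231). No library reached 1 CPM. The call was lost without leukemic_28, leukemic_39, preleukemic_40, preleukemic_77 or preleukemic_224 in turn, with adjusted p of 0.0539 to 0.0815 by edgeR, and without both preleukemic_445 and preleukemic_479 (adjusted p = 0.0511 by edgeR). In the TgSpi1FA+/+ preleukaemic mice, Col15a1 had 13, 9, 7 and 1 counts in preleukemic_445, preleukemic_479, preleukemic_451 and preleukemic_138. In model 2 it had 2, 0, 17 and 0 counts in preleukemic_633, preleukemic_663, preleukemic_812 and preleukemic_837 and 11, 1 and 9 counts in leukemic_601, leukemic_606 and leukemic_921.

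Col23a1, a transmembrane collagen whose outer part can be shed, was abundant in 2 mice of model 1. It lies on chromosome 11 at 51289920 to 51583918 on the plus strand. The stretch before its RefSeq start (GRCm38.p6, plus strand, chr11:51289670-51289919) is shown for comparison with Col5a1, with its GC box in capitals.
Col23a1: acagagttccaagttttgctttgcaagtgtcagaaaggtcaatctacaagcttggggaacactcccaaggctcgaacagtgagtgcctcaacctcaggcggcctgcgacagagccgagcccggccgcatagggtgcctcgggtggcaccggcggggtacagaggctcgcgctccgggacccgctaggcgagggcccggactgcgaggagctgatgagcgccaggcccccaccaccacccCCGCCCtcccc
It holds 1 GC box, 0 PU-boxes and 18 CG dinucleotides.

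Col23a1 had 644 counts in leukemic_28 and 5137 in leukemic_39 (16.4 and 130 CPM), but 1 count in leukemic_26. It had 0 counts in each TgSpi1FA-/- preleukaemic mouse and at most 3 in the TgSpi1FA+/+ mice of model 1, and it was at most 0.176 CPM in model 2. Too few libraries had counts for the edgeR filter. Against 3 counts per library, the leukaemic mean was at least 516-fold higher than that of the TgSpi1FA-/- preleukaemic mice, and at least 87.1-fold without leukemic_39. DESeq2's Wald test called it (adjusted p = 0.000208), and edgeR called it without leukemic_26 (adjusted p = 0.00828). It entered that fit through its counts in leukemic_28 and leukemic_39, so that a fall could hardly be called. In leukemic_39, Col23a1 was the second most abundant collagen per kb of exon.

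The mice leukemic_28 and leukemic_39 thus shared Col23a1, Col4a2 and high Col4a1, whereas leukemic_26 nearly or wholly lacked Col23a1 and Col4a2 and held less Col4a1. The mice leukemic_28 and leukemic_39 carried an Nras mutation and leukemic_26 a Kit mutation, so that the mutation moves with these levels among the 3 leukaemic mice. Spi1 was also lower in leukemic_28 (219 CPM) and leukemic_39 (3.87 CPM) than in leukemic_26 (629 CPM). The part of either in the collagen levels was not tested. Without leukemic_26, 5 of 16 collagens passed the edgeR test in this comparison, where 16.5% of all genes passed in either direction. Of the 5, 4 went upwards (Col4a1, Col4a2, Col15a1 and Col23a1) and 1 downwards (Col5a1). This fit was picked out after the values of leukemic_26 were seen. The 4 would not have passed the filter on low counts without the leukaemic mice, so that a fall could hardly be called for them.

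**Figure D4:**
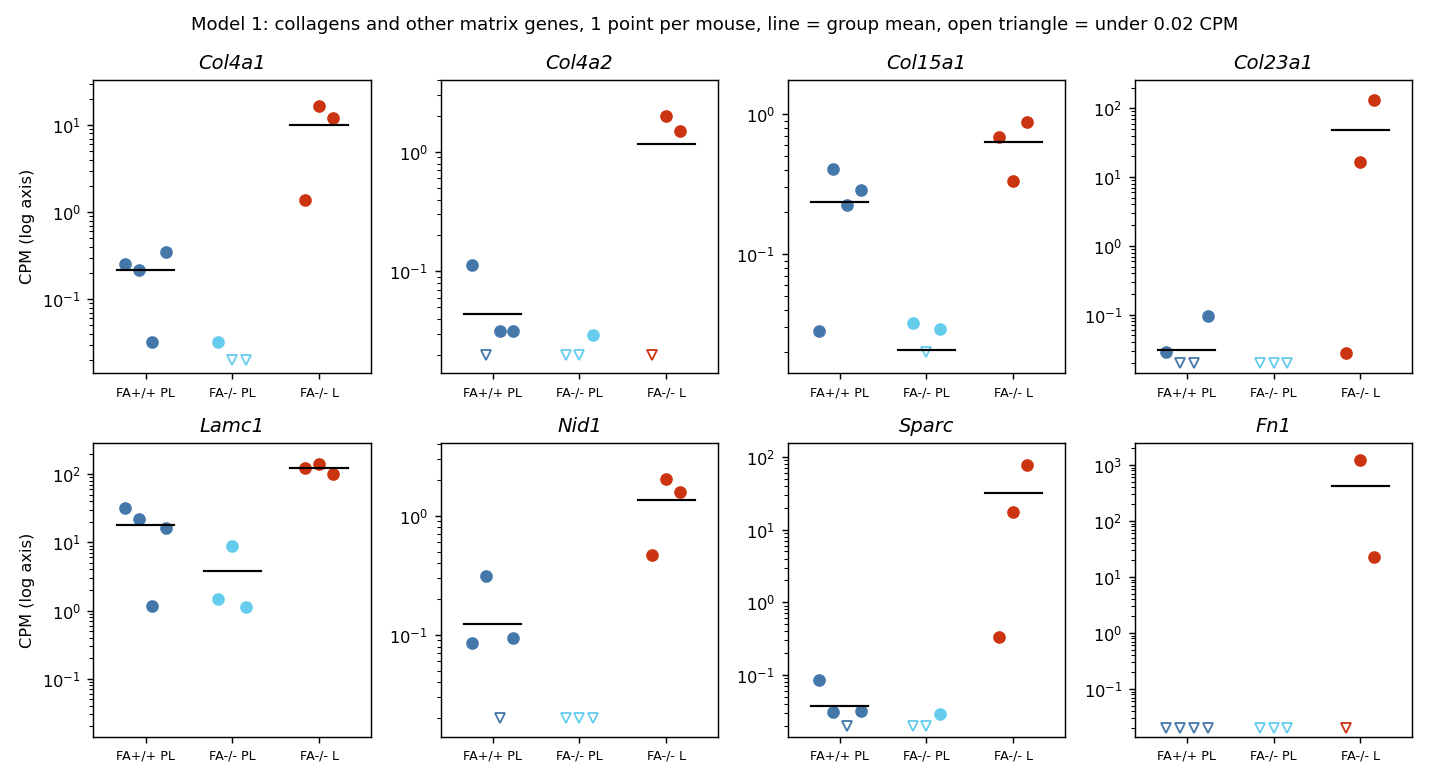
Level of 4 collagens and 4 other matrix genes in CPM on log axes in the 3 groups of model 1, with 1 point per mouse, a line at the group mean and open triangles for values under 0.02 CPM (PL, preleukaemic; L, leukaemic). Col4a1, Lamc1 and Nid1 are highest in the 3 leukaemic mice in this table, whereas Col23a1, Col4a2 and Fn1 are high in only 2 of them.

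Other collagens appeared in a few libraries. Col6a3, a chain of the beaded filaments of type VI collagen, stood at 10.5 CPM in preleukemic_445 and 6.98 CPM in preleukemic_479, and had 0 counts in 7 of the other 8 libraries of model 1 and 2 counts in leukemic_39. Against 3 counts per library, the TgSpi1FA-/- preleukaemic mean was at least 46.3-fold lower, and at least 24.7-fold lower without preleukemic_445. Both libraries with Col6a3 are those that resembled each other, and without both no fold can be given, since each remaining preleukaemic mouse of model 1 had 0 counts. Its partner chains Col6a1 and Col6a2 stayed at or under 3 counts in each library of model 1. In model 2, Col6a3 had at most 1 count.

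Col7a1, the collagen of the anchoring fibrils below the epidermis, stood at 0.593 CPM in preleukemic_445, 0.190 in preleukemic_479, 0.577 in preleukemic_451 and 2.64 in preleukemic_138 of model 1. It stood at 0.952, 0.847 and 0.323 CPM in preleukemic_77, preleukemic_224 and preleukemic_40 and at 0.876, 1.89 and 2.20 CPM in leukemic_26, leukemic_28 and leukemic_39. In model 2 it was 0.160 to 0.649 CPM in the preleukaemic mice, and 0.538 in leukemic_601, 2.59 in leukemic_606 and 0.822 in leukemic_921 of the leukaemic mice. The log2 difference of 1.70 (SE 0.71) had an unadjusted p of 0.045 and an adjusted p of 0.240 by edgeR. It was 0.75 without leukemic_606, the only library of model 2 above 1 CPM.

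Col4a3 and Col4a4, which encode chains of the type IV collagen of the kidney, start close together on chromosome 1 on opposite strands. In model 2, Col4a3 had 59 counts in preleukemic_633, 32 in preleukemic_663, 0 in preleukemic_812 and 23 in preleukemic_837, and 0 counts in all 3 leukaemic mice. Against 3 counts per library, the leukaemic mean was at least 8.99-fold lower, and at least 5.74-fold lower without preleukemic_633, while preleukemic_812 lay with the leukaemic mice. The edgeR test gave an adjusted p of 0.176 and DESeq2's Wald test an adjusted p of 0.0167. In model 1, Col4a3 had 13 counts in preleukemic_445, 8 in preleukemic_479, 1 in preleukemic_451 and 0 in preleukemic_138, and 34 in preleukemic_77, 4 in preleukemic_224 and 2 in preleukemic_40. It had 10, 22 and 16 counts in the leukaemic mice leukemic_26, leukemic_28 and leukemic_39 and did not pass the edgeR test. Col4a4 had at most 15 counts in a library of model 1 and 22 in model 2. Since 563 bp of the exons of Col4a3 lie opposite a gene of the other strand, the reads of Col4a3 depend on strand-specific counting, which was not stated.

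Col20a1, a fibril-associated collagen, stood at 0.125 CPM in preleukemic_445, 0.159 in preleukemic_479, 1.25 in preleukemic_451 and 0.454 in preleukemic_138, and at 0.394 in preleukemic_77, 0.526 in preleukemic_224 and 0.129 in preleukemic_40. It stood at 0.685, 0.739 and 0.455 CPM in leukemic_26, leukemic_28 and leukemic_39, and in model 2 at 0.176 to 0.568 CPM in the preleukaemic and 0.228 to 0.737 CPM in the leukaemic mice. The groups overlapped in each comparison, and it did not pass the edgeR test in any. Col12a1 reached 1 CPM only in preleukemic_138 (1.25 CPM). By class, 6 of 8 fibrillar genes of model 1 reached 1 CPM, 3 of 4 of the basement membrane network, 2 of 6 fibril-associated genes, 1 of 6 of the beaded filaments, 1 of 2 multiplexins, 1 of 2 transmembrane collagens and the collagen of the anchoring fibrils. Col9a3, also fibril-associated, had 2 to 18 counts in model 1 and passed no test. Of the 31 collagens, 10 never exceeded 3 counts in model 1 (Col6a1, Col6a2, Col6a4, Col6a6, Col8a2, Col14a1, Col16a1, Col17a1, Col22a1 and Col28a1). Col2a1, Col6a5 and Col24a1 had at most 7, 12 and 5 counts. In model 2, 6 of 26 never exceeded 3 counts (Col2a1, Col6a3, Col6a5, Col8a2, Col10a1 and Col25a1), and Col25a1 had 0 counts in all libraries.

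The leukaemic change of model 1 was set against that of model 2 in a fit of all 17 libraries, which carries the differences of strain and protocol. Of 12 collagens tested, 1 differed, Col4a1, which was higher, against 4.61% of all genes in either direction and 2.76% upwards (edgeR quasi-likelihood test). DESeq2's Wald test called 3 of 24 (Col4a1, Col4a3 and Col23a1), against 9.31% of all genes. The change of Col4a1 was larger in model 1 by 11.59 on the log2 scale (SE 2.45, adjusted p = 0.0298 by edgeR), a fitted value that rests on near-zero counts. The call was lost in 8 of the fits with 1 mouse of the compared groups left out (preleukemic_77, preleukemic_224, preleukemic_40, leukemic_28, leukemic_39, leukemic_601, leukemic_606 or leukemic_921), with adjusted p of 0.0510 to 0.0834 by edgeR. For the 3 most abundant collagens the difference did not pass the test, at -0.76 (SE 0.85) for Col5a1, 2.55 (SE 1.70) for Col18a1 and 5.71 (SE 5.05) for Col1a2, with adjusted p of 0.604, 0.364 and 0.505 by edgeR.

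Of 17 genes in the table of model 1 that modify and fold collagen chains, 14 reached 1 CPM in a library of the TgSpi1FA-/- leukaemic mice, 9 in the TgSpi1FA-/- and 12 in the TgSpi1FA+/+ preleukaemic mice. P4hb, the shared subunit of prolyl 4-hydroxylase that also serves as protein disulphide isomerase, had the highest level of its list, with a mean of 733 CPM in model 1 and 1056 CPM in model 2. The prolyl isomerase Ppib came next per kb of exon, with a mean of 242 and 371 CPM. In the comparison of TgSpi1FA-/- leukaemic with preleukaemic cells, 1 of 11 tested genes of the list rose and 0 fell, where 6.82% of all genes rose and 6.49% fell, with a median log2 fold change of 0.73 against 0.00 over all genes. The gene was Plod3, a lysyl hydroxylase, which stood at 96.7, 83.7 and 74.2 CPM in leukemic_26, leukemic_28 and leukemic_39 against 50.5, 51.0 and 52.4 CPM in preleukemic_77, preleukemic_224 and preleukemic_40 (log2 fold change 0.73, SE 0.20, edgeR adjusted p = 0.0394). Serpinh1, the chaperone HSP47 on which the folding of many collagens depends, had 0 counts in the 7 preleukaemic mice of model 1 and in leukemic_26, and stood at 0.535 CPM in leukemic_28 and 1.16 CPM in leukemic_39.

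Of the genes for secretion and processing, 0 of 7 passed the edgeR test, with 2 at an unadjusted p under 0.05, where 32.4% of all genes had one, and Mia2 and Mia3, cargo receptors for collagen at the endoplasmic reticulum, were the highest per kb. Of the lysyl oxidases that cross-link collagen, only Loxl3 could be tested, and it did not pass. Of the collagen receptors, 0 of 5 passed, with 1 at an unadjusted p under 0.05, against the same 32.4%, and Itgb1, the beta chain of the collagen-binding integrins, was the highest at a mean of 462 CPM in model 1, followed by Lair1 at 27.2 CPM. Of 2 tested genes for collagen breakdown, Mmp14 fell and Ctsk rose, where 6.82% of all genes rose and 6.49% fell. Ctsk would not have passed the filter on low counts without the leukaemic mice, so that a fall could hardly be called for it. Mmp14, a membrane-bound collagenase, stood at 178 CPM in preleukemic_77, 95.5 in preleukemic_224 and 248 in preleukemic_40 and at 22.2 in leukemic_26, 3.80 in leukemic_28 and 0.126 in leukemic_39 (log2 fold change -4.32, SE 1.21, edgeR adjusted p = 0.0448). Ctsk, the collagen-cleaving cathepsin K, was low, at 0.821, 0.586 and 1.11 CPM in leukemic_26, leukemic_28 and leukemic_39 and at most 0.0656 CPM in the TgSpi1FA-/- preleukaemic mice (edgeR adjusted p = 0.0400).

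Other matrix genes rose beside Col4a1. Of 4 tested in TgSpi1FA-/- leukaemic against preleukaemic cells, 3 rose and 0 fell, where 6.82% of all genes rose. Nid1 and Sparc would not have passed the filter on low counts without the leukaemic mice, so that a fall could hardly be called for them. Lamc1, a laminin chain of basement membranes, stood at 122 CPM in leukemic_26, 143 in leukemic_28 and 101 in leukemic_39 against 8.73 in preleukemic_77, 1.11 in preleukemic_224 and 1.46 in preleukemic_40 (log2 fold change 5.02, SE 1.18, edgeR adjusted p = 0.0274). In the TgSpi1FA+/+ preleukaemic mice Lamc1 was 1.153 CPM in preleukemic_451, 16.17 in preleukemic_479, 22.36 in preleukemic_445 and 31.85 in preleukemic_138. Nid1, the nidogen that links laminin to type IV collagen, stood at 0.466, 2.04 and 1.59 CPM in leukemic_26, leukemic_28 and leukemic_39 and had 0 counts in the TgSpi1FA-/- preleukaemic mice, a mean at least 14.46-fold higher against 3 counts per library (edgeR adjusted p = 0.0239). Sparc, a protein that binds collagen, stood at 0.329, 17.5 and 77.9 CPM, at least 338-fold higher, and at least 94.6-fold without leukemic_39 (edgeR adjusted p = 0.0160).

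Fn1, the fibronectin of cell adhesion, had 0 counts in the preleukaemic mice of model 1 and in leukemic_26, and stood at 1234 CPM in leukemic_28 and 22.6 CPM in leukemic_39. It did not pass the filter, and the leukaemic mean was at least 4438-fold higher against 3 counts per library, but at least 120-fold without leukemic_28. Over all 6 lists of collagen-related genes, 5 of 30 tested genes rose and 1 fell in this comparison, where 6.82% of all genes rose and 6.49% fell. Of the 5, Nid1, Sparc and Ctsk entered the test through their counts in the leukaemic mice. In the comparison of the preleukaemic genotypes 0 of 30 passed the edgeR test, with 5 at an unadjusted p under 0.05, against 8.65% of all genes. In model 2, 0 of 25 passed, with 4 at an unadjusted p under 0.05, against 19.9% of all genes.

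Markers of other cell types that make collagen were read in the same libraries. Of 10 fibroblast and stroma genes, 7 were in the table of model 1, and their summed level was 1.137 to 16.6 CPM in the TgSpi1FA-/- leukaemic mice, 0.162 to 0.263 CPM in the TgSpi1FA-/- preleukaemic mice and 0.717 to 3.95 CPM in the TgSpi1FA+/+ preleukaemic mice. Thy1 made up most of this in leukemic_26 (14.9 CPM), and Pdgfra was at most 0.0764 CPM. Pdgfrb had 39, 11 and 19 counts in leukemic_26, leukemic_28 and leukemic_39, 0 in the TgSpi1FA-/- and at most 3 in the TgSpi1FA+/+ preleukaemic mice. Acta2, Lepr and Tagln overlapped between the leukaemic and the TgSpi1FA-/- preleukaemic mice. Of 7 endothelial genes, 5 were in the table, and their sum was 13.3 to 51.5 CPM in the leukaemic mice against 1.75 to 8.43 CPM in the TgSpi1FA-/- and 5.59 to 8.51 CPM in the TgSpi1FA+/+ preleukaemic mice. Kdr, the receptor of vascular endothelial growth factor, made up much of it, at 7.31 CPM in leukemic_26, 26.6 in leukemic_28 and 34.4 in leukemic_39. Cdh5, which defines endothelium, had 19, 10 and 7 counts in these mice (at most 0.52 CPM) and 0 in each preleukaemic mouse of model 1. Pecam1 had 10, 60 and 16 counts in them, at most 1 in the TgSpi1FA-/- and at most 9 in the TgSpi1FA+/+ preleukaemic mice. Tek ranged from 0.101 CPM in leukemic_39 to 21.4 CPM in leukemic_28 and overlapped both preleukaemic groups. The 6 megakaryocyte genes summed to 165 to 250 CPM in the leukaemic mice, 31.1 to 40.01 CPM in the TgSpi1FA-/- and 43.5 to 192 CPM in the TgSpi1FA+/+ preleukaemic mice. Itga2b made up most of the sum in the leukaemic mice. Pf4 exceeded Itga2b in preleukemic_445 (130 against 55.95 CPM), preleukemic_479 (124 against 44.81 CPM) and preleukemic_224 (23.0 against 16.07 CPM). The erythroid sum was 2389 to 3839 CPM in the leukaemic mice and 4760 to 5548 CPM in the TgSpi1FA-/- preleukaemic mice. For macrophage genes the sums were 2.62 to 3.78 and 2.167 to 3.58 CPM, and for mast cell genes 0.126 to 11.1 and 1.75 to 15.9 CPM, and 0 genes of either list passed the edgeR test.

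In the comparison where Col4a1 rose, 2 of 3 endothelial genes tested rose (Kdr and Vwf), and 1 of 4 megakaryocyte genes (Itga2b). The 1 fibroblast and stroma gene tested (Thy1) also rose, and 3 of 11 erythroid genes fell (Ermap, Hbb-bt and Klf1) (edgeR). Of all genes tested, 6.82% rose and 6.49% fell. Kdr, like Col4a1, Col4a2 and Col23a1, was higher in leukemic_28 and leukemic_39 than in leukemic_26. Thy1 went the other way, at 14.9 CPM in leukemic_26, 2.39 in leukemic_28 and 0 in leukemic_39. Vwf was 1.095 to 3.082 CPM in the leukaemic mice and 1.185 to 4.085 CPM in the TgSpi1FA+/+ preleukaemic mice. The part of these markers in the levels of Col4a1, Col4a2, Col15a1 and Col23a1 was not tested. In bulk RNA, fewer cells of a type and less RNA per cell cannot be told apart. For Col1a2 in preleukemic_40, the highest value of that gene, the fibroblast and stroma sum was at most 0.263 CPM, with Pdgfra, Pdgfrb and Thy1 at 0 counts. Dcn, which encodes decorin, a matrix protein made by fibroblasts, had 65 counts (2.10 CPM) in preleukemic_40 and at most 3 counts in the other libraries of model 1. Dcn and Col1a2 were thus both highest of model 1 in this mouse, while preleukemic_445 and preleukemic_479, the next highest for Col1a2, had 0 counts of Dcn. In model 2, Dcn had 25 counts in leukemic_921, where Col1a2 had 0, and 0 counts in preleukemic_837, where Col1a2 was highest. The part of Dcn in the level of Col1a2 was not tested.

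A second table held other counts for 7 mice of model 1, the TgSpi1FA+/+ preleukaemic and the TgSpi1FA-/- leukaemic ones, with 39 collagens among 31633 genes and 35497594 to 171572736 counts per library. In it, Col4a1 had 634 counts in leukemic_28 and 1097 in leukemic_39, and Col23a1 had 1187 and 2090 counts, while leukemic_26 had 2 and 7 counts. The level of Col4a1 in leukemic_26 thus differed between the tables, at 1.37 CPM in the first and 0.0113 CPM in the second. Of its 39 collagens, 3 (Col4a3, Col7a1 and Col24a1) had more than 3 counts in each leukaemic library and lay above all preleukaemic libraries there, against 6.28% of all genes in that table. Col5a1 was again the most abundant collagen per kb in 5 of the 7 libraries and Col18a1 in leukemic_28 and leukemic_39.

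The library labelled preleukemic_445 differed between the tables. In the second table it had 2 counts of Col1a2, 0 of Col6a3 and 35 of Col18a1, whereas preleukemic_479 had 3275, 1191 and 495 counts. Over 11004 other genes, 6 of the 7 libraries of the first table correlated best with the library of the same mouse in the second, and preleukemic_445 with preleukemic_479 (Pearson r across genes of deviations from the mean over mice 0.651, against 0.550 with preleukemic_445). Genes are not independent replicates, and these values are a description. The 52.1 CPM of Col1a2 and 10.5 CPM of Col6a3 in preleukemic_445 are therefore given only as those of the library with that label. Without preleukemic_445 and preleukemic_479 the comparison of leukaemic with preleukaemic TgSpi1FA-/- cells called 1 collagen, Col4a1, against 5.38% of all genes. That of the preleukaemic genotypes called 0 collagens.

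**Figure D5:**
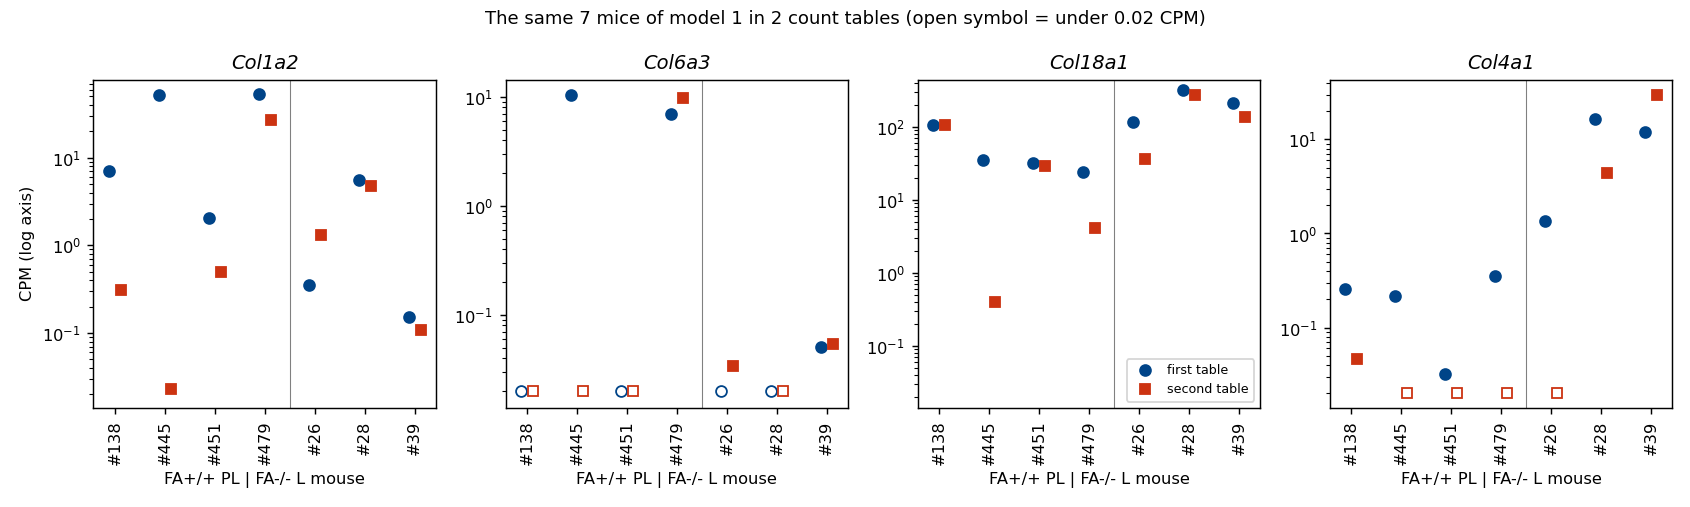
Level of Col1a2, Col6a3, Col18a1 and Col4a1 in CPM on log axes for the 7 mice that both tables of model 1 hold, with blue circles for the first table, red squares for the second and open symbols for values under 0.02 CPM. For preleukemic_445 the symbols of Col1a2, Col6a3 and Col18a1 lie far apart, and Col4a1 is high in leukemic_28 and leukemic_39 in both tables.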

How the data were processed

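Gene counts of 17 cultured erythroblast libraries (model 1 and model 2) were used, and a second table for 7 mice of model 1. The authors deposited raw counts of reads per gene. The submitters' processing notes name bcl2fastq (2.17.1.14), STAR (2.5.3a) and HTSeq (0.6.1p1), with GRCm38 (mm10) as the build. Libraries were polyA-selected and stranded, and whether counting used strand was not given in the sources used here. Model 1 and model 2 differed in input RNA and fragmentation time, so that levels are compared within a table. A deposited copy of the model 2 table held the same values and was not used. No column lacked a sample.

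Groups follow the sample titles. For the 3 TgSpi1FA-/- preleukaemic mice the titles say preleukaemic, whereas another label says leukaemic. Each library is 1 mouse, so the spread is that between mice. The members and gene lists were chosen with earlier results of these data known.

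Counts were tested in edgeR (4.0.16, R 4.3.3) with filterByExpr, TMM scaling and the quasi-likelihood test, with Benjamini-Hochberg adjustment over all genes tested. The thresholds for a call were 0.05 for the adjusted p and 1.5 for the fold change. The 3 groups of model 1 were fitted together, and model 2 on its own. DESeq2 (1.42.0), other filters and scalings, and leaving out each mouse were alternatives, and adjusted p values that DESeq2 gave as NA were kept as NA. Genes with such an NA could not be called and stay in the numbers that the DESeq2 shares refer to. The fits were tested on simulated data. Exact permutation tests used scipy (1.17.1). CPM used TMM-scaled library sizes. Where all libraries of a group had at most 3 counts, folds are lower bounds against 3 counts per library. These bounds cover counting error only. Exon lengths and positions are those of GENCODE M21, and sequences those of RefSeq (GRCm38.p6), in which all 12 genes looked up had an entry. Values per library are given for collagens that were called, that had an unadjusted p under 0.05 and a group mean of at least 1 CPM, or that were among the 8 highest per kb of exon in a model. Col1a1, Col4a2, Col5a2, Col12a1, Fn1 and Serpinh1 were added after their values were seen. Log2 differences are printed for members with an unadjusted p under 0.05 in the comparison or a group mean of at least 50 CPM.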

Additional observations from a re-analysis of the deposited data

Results flagged for a closer look

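In groups of 4 mice, a mouse was picked out where it lay far from the other 3 for its group's range (Dixon's criterion). Chance meets this in about 1 in 20 groups of independent, normally distributed values. The TgSpi1FA+/+ preleukaemic mouse preleukemic_138 was picked out for 3 collagens. It had the highest Col18a1 (104 CPM), the lowest Col5a1 (180 CPM) and the highest Col7a1 (2.64 CPM) of its group. In that group preleukemic_445 and preleukemic_479 resembled each other closely, so that the rate does not apply to it. In model 2, the preleukaemic mouse preleukemic_633 was picked out for Col11a2 (4.20 CPM) and Col4a1 (1.76 CPM), and preleukemic_837 for Col1a2 (31.6 CPM), each the highest of its group.

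The leukaemic change of Col4a1 differed between the models, by 11.59 on the log2 scale in the edgeR test of the difference. This fitted value rests on near-zero counts, and the call was lost in several fits with 1 mouse left out (adjusted p up to 0.0834 by edgeR).

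In the second table, which enters no comparison above, the lowest TgSpi1FA-/- leukaemic library lay above all TgSpi1FA+/+ preleukaemic libraries for Col7a1 (5.23 CPM), Col4a3 (1.16 CPM) and Col24a1 (0.0960 CPM), which are 3 of 39 collagens, while 6.28% of all genes in that table did so with over 3 counts in each leukaemic library.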

How the results depend on the processing

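The number of collagens called is given here with the share of all genes called. In TgSpi1FA-/- leukaemic against preleukaemic cells it was 2 by edgeR (13.3%) and 5 by DESeq2's Wald test (12%). With a filter of 1 CPM in 3 libraries it was 1 (14.2%), and without both preleukemic_445 and preleukemic_479 it was 1 (5.38%). With 1 mouse left out it was 1 to 5 (2.97% to 16.5%). In model 2 it was 0 (0%), but 1 by DESeq2 (2.02%), and 0 with any mouse left out (0% to 0.00744%). For the difference between the models it was 1 (4.61%), but 3 by DESeq2 (9.31%), and 0 to 3 with 1 mouse left out (0.00664% to 9.38%). Between the preleukaemic genotypes it was 0 in all alternatives (0.00704% to 0.994%). The alternatives without, or with the average of, preleukemic_445 and preleukemic_479 were chosen after seeing the data. The number of collagens expressed was 6 in model 1 and 3 in model 2 at 1 CPM per kb of exon instead of 1 CPM. With 1 mouse left out, the log2 difference changed sign for Col18a1 between the preleukaemic genotypes (-1.09 to 0.55) and in model 2 (-1.81 to 0.34), for Col1a2 between the preleukaemic genotypes (-0.92 to 2.36) and for Col5a1 in the difference between the models (-1.42 to 0.35), none of which passed the test. The cause was not tested. No paired analysis was possible because each mouse number occurs in 1 group only. Counts near 0 limit Col4a1, Col4a2, Col15a1 and Col23a1, whose fitted changes are not precise.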
